A study of Sus scrofa with 54 samples.

Results

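NR4A2 (ENSSSCG00000015871) and PDE4D (ENSSSCG00000016929) are 2 of the 25114 genes counted in RNA-seq of porcine heart biopsies. Both are tied to cyclic AMP. They were chosen by their identifiers as cAMP-linked genes, with earlier results of these data in view. The contrast that drew attention to them set 4 follow-up samples that stood apart in a principal component plot against 14 samples that lay with the conventional biopsies. The sample sets of that contrast were picked anew here, as stated below, and their values are given as a description only.

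The study tested a miniature endomyocardial biopsy device (micro-EMB) that takes a sub-milligram piece of the ventricle wall. RNA-seq was run on 54 samples from 5 pigs, which the study describes as adult female farm swine without earlier treatment. There were 20 micro-EMB samples at baseline (5 pigs) and 12 at follow-up at day 7 (4 pigs). Endomyocardial biopsies from a conventional bioptome (conventional EMB) numbered 6 at baseline and 4 at follow-up. Peripheral blood and skeletal muscle gave 6 baseline samples each. All conventional EMB, blood and muscle samples came from pigs 4491 and 4494, so samples of 1 pig are repeated pieces of 1 animal. The groups differ by tissue, device and time. The follow-up biopsies came from hearts already biopsied at baseline, and no heart without biopsies was compared. P-values across samples therefore measure the spread between pieces more than the spread between animals.

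Cyclic AMP is the second messenger of beta-adrenergic signalling in the heart. It activates protein kinase A, which phosphorylates calcium channels, the ryanodine receptor and contractile proteins, and also the transcription factor CREB. NR4A2 encodes an orphan nuclear receptor of the NR4A family and is an immediate early gene: its transcript is induced within a short time by cAMP, growth factors and injury, and CREB is among the factors that drive it. PDE4D encodes a phosphodiesterase that breaks cAMP down and limits how far and how long the signal spreads. In heart muscle cells its protein is found near the ryanodine receptor RYR2 and the beta-adrenergic receptors. PDE4D has many protein isoforms from alternative promoters, which gene-level counts cannot separate.

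Levels are read counts scaled to library size with TMM factors (TMM CPM), without correction for gene length. Libraries held 64216 to 4649613 counted reads (median 1800054.5), and 14 had under 1000000. In 3 baseline micro-EMB libraries (samples 9, 10 and 21) fewer than 5000 genes reached 1 CPM. On 841 blood genes listed in the study's supplement, where its own clustering names a smaller number, 7 libraries clustered with blood (conventional EMB samples 3, 38 and 55, micro-EMB samples 4, 19 and 44, muscle sample 57). The other 44 samples are called the kept set.

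The labelled tissue was checked first, because both genes are compared between tissues below. In the 3 conventional EMB samples that clustered with blood, the heart muscle markers RYR2 and TNNT2 (cardiac troponin T) were at 10.1 to 418 and 29.8 to 582 CPM. In the other 7 conventional EMB samples they were at 4244 to 16910 and 6755 to 18030 CPM. Samples 38, 3 and 55 therefore held much less of these heart transcripts than the other 7. Sample 3, with 74767 reads, held the most (418 and 582 CPM), above every muscle sample (at most 196 and 35.9 CPM). The beta-globin (HBB) level of the 3 samples was 618 to 4366 CPM, against 17945 to 60141 CPM in blood. NR4A2 in these 3 samples was 258 to 791 CPM, above every other conventional EMB sample (11.8 to 156) and above every blood sample (at most 10.6). PDE4D was 18.2 to 45.5 CPM in them, below every other conventional EMB sample (306 to 517) and below every blood sample (at least 48.2). The NR4A2 and PDE4D comparisons that hold these libraries are given with and without them. For PDE4D between devices, only the direction and the side of the threshold are given without them. Bulk RNA cannot separate fewer cells of a type from less RNA per cell.

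NR4A2 was lowest and most even in blood. Its levels were 6.68, 6.36 and 10.6 CPM in pig 4491 and 5.12, 6.43 and 5.05 CPM in pig 4494, with 9 to 30 reads a library. In skeletal muscle it was 28.3, 45.6 and 22.1 CPM in pig 4491 and 18.5, 38.1 and 3.03 CPM in pig 4494. Muscle sample 48, at 5 reads, was the only muscle sample below the blood samples; the other 5 were all above them.

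In baseline conventional EMB the 2 pigs did not overlap for NR4A2. Pig 4491 gave 15.5, 22.4 and 14.2 CPM, and pig 4494 gave 71.0, 156 and, in the sample low in heart markers, 791 CPM. The 3 samples of pig 4491 lay within the muscle range and the 3 of pig 4494 above it. At follow-up, conventional EMB held 49.6 and 258 CPM in pig 4491 and 11.8 and 309 CPM in pig 4494, the higher value of each pig being a library that clustered with blood.

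Micro-EMB samples covered the widest range of NR4A2. At baseline the 20 samples ran from 0 to 532 CPM with a median of 25.8. Samples 10, 21 and 29 had no read. The first 2 were libraries low in genes, but sample 29 had 1132212 reads, where 0 reads allow up to 1.91 CPM (3 reads). At follow-up the 12 samples ran from 0 to 2707 CPM with a median of 119.8. The highest, sample 22 of pig 4494, rested on 4547 reads (95% Poisson interval 2628 to 2786 CPM), and sample 8 of pig 4491 had no read among 801208 (up to 3.50 CPM). These intervals and limits cover counting error only.

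PDE4D was also lowest in blood, at 83.8, 102 and 109 CPM in pig 4491 and 56.4, 81.7 and 48.2 CPM in pig 4494. Skeletal muscle held 305, 239 and 141 CPM in pig 4491 and 280.4, 194 and 168 CPM in pig 4494, so blood and muscle did not overlap. Baseline conventional EMB held 517, 306 and 428 CPM in pig 4491 and 351, 454 and 45.5 CPM in pig 4494. Apart from sample 38 at 45.5 CPM, conventional EMB lay above muscle, with its lowest sample and the highest muscle sample next to each other.

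At follow-up PDE4D in conventional EMB was 324 and 36.1 CPM in pig 4491 and 419 and 18.2 CPM in pig 4494. The 2 low values belong to the libraries that clustered with blood, and sample 3 among them had only 2 PDE4D reads (interval 2.20 to 65.7 CPM). Baseline micro-EMB ran from 0 to 662 CPM with a median of 189.5. Both ends were libraries low in genes, and without the excluded libraries the range was 40.6 to 479.5 CPM. Follow-up micro-EMB ran from 46.4 to 325 CPM with a median of 107.8, and none of its 12 samples exceeded the highest baseline value.

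Ordered by median, NR4A2 rose from blood (6.40 CPM) through muscle (25.2), baseline micro-EMB (25.8), baseline conventional EMB (46.7) and follow-up micro-EMB (119.8) to follow-up conventional EMB (154). All neighbours in this order overlapped. For PDE4D the order was blood (82.8 CPM), follow-up micro-EMB (107.8), follow-up conventional EMB (180.0), baseline micro-EMB (189.5), muscle (216) and baseline conventional EMB (389.7), and here too every pair of neighbours overlapped. In the kept set the median of follow-up conventional EMB moved to 30.7 CPM for NR4A2 and to 371 CPM for PDE4D, on 2 samples.

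**Figure D1:**
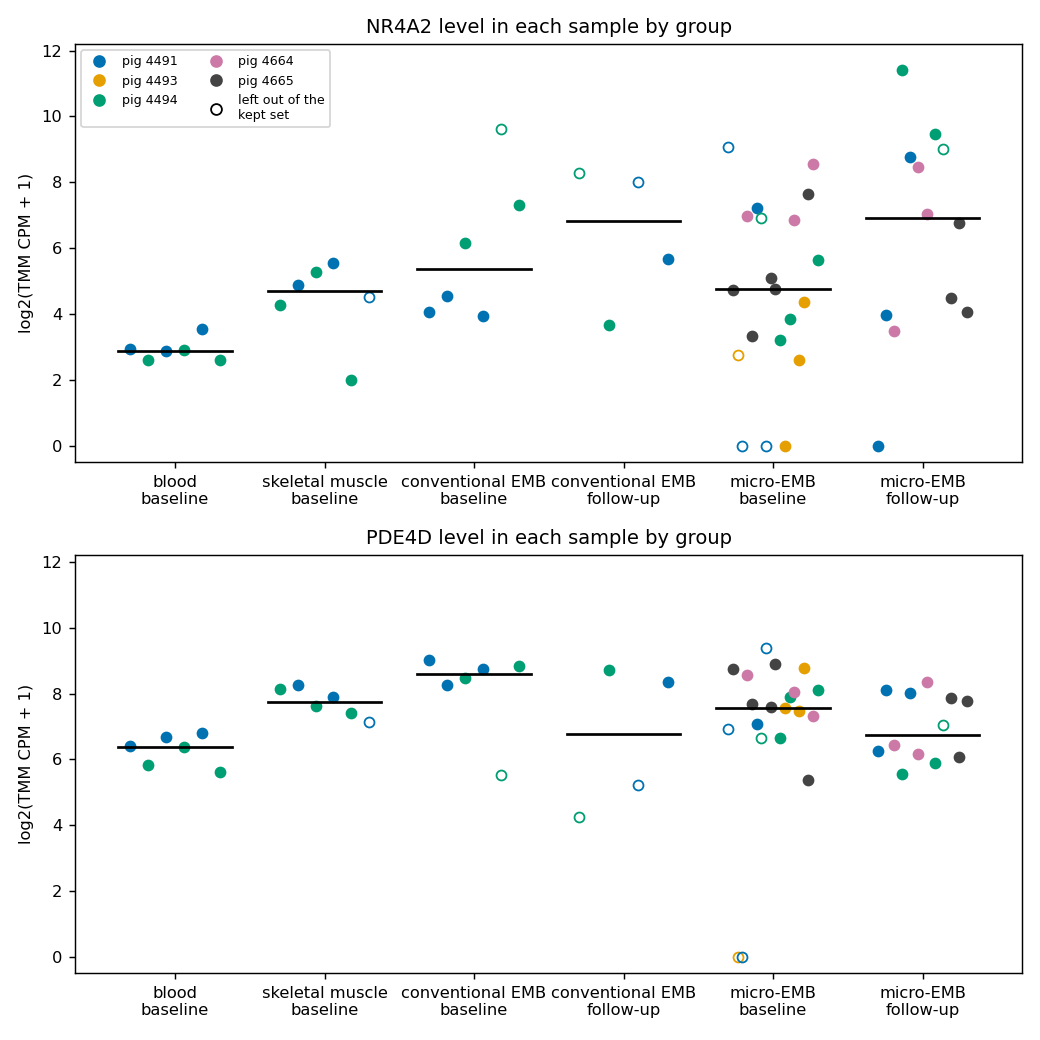
Level of NR4A2 (top) and PDE4D (bottom) in each of the 54 samples, as log2(TMM CPM + 1), by group. Points are samples coloured by pig, open points are the 10 libraries outside the kept set, and bars are group medians; in conventional EMB the 3 open points are the highest NR4A2 values and the lowest PDE4D values.

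The first comparison asked how both genes differ between heart and the control tissues at baseline. Both genes were higher in conventional EMB than in blood. NR4A2 was 22.1-fold higher (log2 fold change 4.47, SE 1.07, n = 6 and 6, edgeR adjusted p = 0.00248), and PDE4D was 4.21-fold higher (2.07, SE 0.37, adjusted p = 0.000157). In this comparison 35.2% of the 10800 tested genes were called. Without conventional EMB sample 38 the NR4A2 difference was 2.79 (adjusted p = 0.00107), and the PDE4D difference was 2.29 (adjusted p = 1.21e-07). Summed to 1 library per pig and tissue, NR4A2 was no longer called (4.69, adjusted p = 0.146).

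Against skeletal muscle neither gene passed the threshold, where 9.51% of genes were called. NR4A2 was 2.56 higher in conventional EMB on the log2 scale (SE 1.03, adjusted p = 0.132, 95% interval 0.41 to 4.70). Without sample 38 this value was 0.90 (adjusted p = 0.453). The PDE4D difference was 0.63 (SE 0.36, adjusted p = 0.315, interval -0.11 to 1.37). Without sample 38 it was 0.86 and was called (edgeR adjusted p = 0.0237). In the kept set it was 0.77 (adjusted p = 0.0204).

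Between blood and muscle, where 43.3% of genes were called, PDE4D was 2.72-fold lower in blood (log2 -1.45, SE 0.36, edgeR adjusted p = 0.003). The call was lost when counts were summed per pig (-1.40, adjusted p = 0.0621) and when all 54 samples shared 1 fit (-1.43, adjusted p = 0.146). NR4A2 was at -1.91 (SE 0.88, adjusted p = 0.0876). It was called in the kept set (-1.87, adjusted p = 0.0132) and without muscle sample 48 (-2.19, adjusted p = 0.0483).

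**Figure D2:**
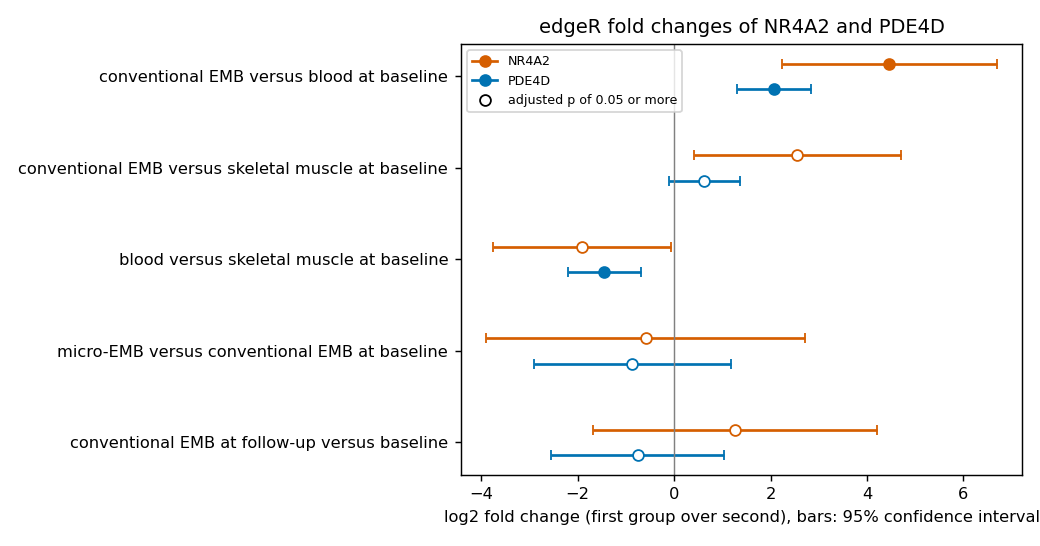
Log2 fold changes of NR4A2 and PDE4D in the 5 comparisons, first group over second, from edgeR, with 95% confidence intervals. Filled points passed an adjusted p of 0.05: both genes in conventional EMB against blood, and PDE4D in blood against muscle.

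Relatives of each gene give the context. Of the other NR4A members only NR4A3 was found by symbol in the table. NR4A3 was 7.53 higher in conventional EMB than in blood on the log2 scale (adjusted p = 8.34e-05) and lower in blood than in muscle, at -4.68 (adjusted p = 0.00174). It was at 2.85 in conventional EMB against muscle (adjusted p = 0.12). Without sample 38 these values were 6.54 against blood (adjusted p = 5.74e-06) and 1.84 against muscle (adjusted p = 0.161). Among CREB targets and immediate early genes, 8 of 10 tested were higher in conventional EMB than in blood, where 25.1% of all genes were called higher. Of the same 10, 8 were lower in blood than in muscle and none was higher, beside 27.4% and 15.9% of all genes. None of the 10 was called between conventional EMB and muscle, where 9.51% of all genes were called. That count does not set the list apart. Without sample 38, 8 of 10 were higher than in blood, beside 28.5% of all genes. Against muscle none was called without it, beside 6.28% of all genes called higher and 5.33% lower. FOS, a subunit of the AP-1 transcription factor, was 8.11 higher in conventional EMB than in blood (adjusted p = 2.7e-05), and 6.79 higher without sample 38 (adjusted p = 4.79e-07). The median log2 difference of these 10 genes was 3.79 against blood, beside 0.19 over all tested genes.

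In the PDE4 family, PDE4B was tested and PDE4A was too low to be tested. PDE4B was 1.58 higher in conventional EMB than in muscle (adjusted p = 0.00856) and at 0.90 against blood (adjusted p = 0.061). Sample 38 held 790.0 CPM of PDE4B and the other 5 conventional EMB samples 139 to 319 CPM. Without it PDE4B was 1.12 higher than in muscle (adjusted p = 0.00939) and at 0.49 against blood (adjusted p = 0.151). Of 11 other cyclic nucleotide phosphodiesterases tested, 5 were higher in conventional EMB than in blood and none was lower, beside 25.1% and 10.1% of all genes. Their median was 0.27, beside 0.19 over all genes. Without sample 38, 5 of the 11 were higher than in blood and 1 (PDE1B, at -3.27) was lower, beside 28.5% and 18.2% of all genes. PDE3A, another cAMP phosphodiesterase of heart muscle, was 9.86 higher than in blood (adjusted p = 3.82e-07) and 4.80 higher than in muscle (adjusted p = 0.000116). Without sample 38 it was 9.87 and 4.76 higher (adjusted p = 3.49e-08 and 3.3e-05). Of 18 tested genes of the cAMP machinery, 9 were higher in conventional EMB than in blood and none was lower, with a median of 1.52. Without sample 38, 10 were higher and 3 (GNAI2, CRTC2 and CREBBP) lower than in blood, beside 28.5% and 18.2% of all genes. Against muscle, 3 of the 18 were higher and 2 lower, with or without sample 38, beside 5.33% and 4.18% of all genes in the fit with it. Their median against muscle was -0.05, beside 0.04 over all genes. ADCY6, an adenylyl cyclase of heart muscle that makes cAMP, was higher than in muscle by 4.47 (adjusted p = 2.48e-06), and PRKAR1A, a regulatory subunit of protein kinase A, by 0.97 (adjusted p = 0.0219). Without sample 38 these values were 4.57 and 1.10. ADCY2, another cyclase, was lower there, at -6.01 (adjusted p = 0.000157), and at -5.75 without sample 38.

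The second comparison asked whether the small device gives the same levels as the conventional one. In pigs 4491 and 4494 at baseline, 8 samples from the small device were set against 6 from the conventional one. Of the 8, 1 was among the 14 samples picked here for the contrast that drew attention to the genes. No gene was called (0% of 9116), with 284 at an unadjusted p under 0.05 and 13 called by DESeq2. NR4A2 was at -0.59 (SE 1.69, edgeR adjusted p = 1.00, interval -3.89 to 2.72), and PDE4D was at -0.86 (SE 1.04, adjusted p = 1.00, interval -2.91 to 1.18). The median of all genes was itself at -0.48 under TMM and at -0.18 under RLE scaling, so relative to it NR4A2 was near 0. PDE4D kept its sign and stayed uncalled under all 22 alternatives, among them the kept set and leaving out sample 38. The sign of NR4A2 was not fixed: it was 0.07 under RLE and 1.09 without conventional EMB sample 38. These intervals leave room for differences of several fold in either direction for NR4A2.

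The spread tests used 20 baseline micro-EMB samples, of which 10 were among the 14 picked for the contrast that drew attention to the genes. Spread was tested as the mean distance of log2(CPM + 1) from the group median, which holds differences between pigs (5 and 2) as well as between pieces. For NR4A2 it was 2.19 in 20 micro-EMB and 1.76 in 6 conventional EMB baseline samples (exact two-sided permutation p = 0.562, adjusted over the 2 genes p = 0.583). For PDE4D it was 1.44 and 0.72 (exact permutation p = 0.583, adjusted p = 0.583). In the kept set (n = 15 and 5) the NR4A2 distances were 1.73 and 1.10 (exact permutation p = 0.377), and the PDE4D distances were 0.67 and 0.22 (exact permutation p = 0.0889, adjusted p = 0.178). Distances from the median of the same pig, a measure added after seeing the data, were 1.63 and 0.68 for NR4A2 (exact permutation p = 0.16, adjusted p = 0.319) and 1.35 and 0.67 for PDE4D (exact permutation p = 0.582). In pigs 4491 and 4494 alone they were 2.72 in 8 micro-EMB and 0.68 in 6 conventional EMB samples for NR4A2 (exact permutation p = 0.016, adjusted p = 0.032). Each pig gave 3 conventional EMB samples, so the middle one has a distance of 0 by construction. The 4 micro-EMB samples of a pig have no such fixed value, so this p-value favours a larger micro-EMB spread. The difference was not detected in the kept set of these pigs (0.61 and 0.35, n = 4 and 5, exact permutation p = 0.635), which leaves out the libraries low in genes and those that clustered with blood. Counting error was smaller than the observed spread except for NR4A2 in blood. The SD of log2 NR4A2 in baseline micro-EMB was 2.75 where counting alone gave about 0.32, and for PDE4D it was 2.55 against 0.10. The counting values are root mean squares over the samples of the group. Libraries with no read add nothing to them, so they are too low where such libraries are present. In blood the SD of NR4A2 was 0.34 against 0.32 from counting.

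The third comparison followed conventional EMB over the week, in 4 follow-up and 6 baseline samples. No gene was called (0% of 9622), with 302 at an unadjusted p under 0.05 and 205 called by DESeq2. NR4A2 was at 1.26 (SE 1.36, edgeR adjusted p = 0.973, interval -1.69 to 4.21). It was at -0.10 without follow-up sample 55 and at -0.15 in the kept set. PDE4D was at -0.75 (SE 0.83, adjusted p = 0.973, interval -2.54 to 1.04), and at -0.16 in the kept set.

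Micro-EMB over the week is described without a test, since the genes were noticed in a contrast within micro-EMB. That contrast set follow-up samples against 14 others, of which 10 in the sets picked here were at baseline. The follow-up median was higher by 2.16 on the log2(CPM + 1) scale for NR4A2, and for PDE4D it was lower, at -0.84. The NR4A2 difference rested on pig 4494. In that pig NR4A2 was 119, 8.32, 13.4 and 49.3 CPM at baseline and 2707, 714 and 512 CPM at follow-up, with no overlap. The 119 and 512 CPM came from samples 19 and 44, which clustered with blood. Sample 44 also held 702.5 CPM of S100A8, a gene listed as a neutrophil marker, against at most 9.81 CPM in blood. The other neutrophil gene found by symbol, CSF3R, had 0 reads in all samples, so S100A8 alone stands for that list. The part of sample 44 in the result was not tested. PDE4D in pig 4494 was 99.8, 99.7, 236 and 275.5 CPM at baseline and 46.4, 58.2 and 129.9 CPM at follow-up. Without pig 4494 the NR4A2 difference was -0.25 and the PDE4D difference 0.19. PDE4D fell in pig 4664 too, by more than in pig 4494. Without pig 4664 the PDE4D difference was -0.51. In the kept set with all pigs they were 2.02 and -1.25.

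The other 3 pigs with both times showed no common direction for NR4A2. Within pigs, its follow-up minus baseline medians were 0.36 in pig 4491, 0.06 in pig 4664 and -0.25 in pig 4665, beside 4.73 in pig 4494. For PDE4D they were 1.01 in pig 4491, -1.61 in pig 4664, 0.08 in pig 4665 and -1.38 in pig 4494. In pig 4491, baseline samples 10 and 21 were low in genes with no NR4A2 read, and sample 4 clustered with blood. On the CPM scale the NR4A2 median of pig 4491 was lower at follow-up (14.6) than at baseline (73.9). The same libraries enter the PDE4D value of that pig. In the follow-up samples of pig 4494 other immediate early genes were high too. FOS was 1162 to 2799 CPM there, against 14.3 to 773 CPM in the pig's baseline samples, and NR4A3 was 668 to 2516 CPM against 16.0 to 265. RYR2 was 621 to 2599 CPM against 1971 to 7107. The other heart muscle marker, TNNT2, was 2074 to 14655 CPM against 2535 to 12500, with its highest value at follow-up. Their part in the NR4A2 and PDE4D values was not tested. The highest NR4A2 value is in sample 22, which is also 1 of the 4 samples taken below to stand apart.

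**Figure D3:**
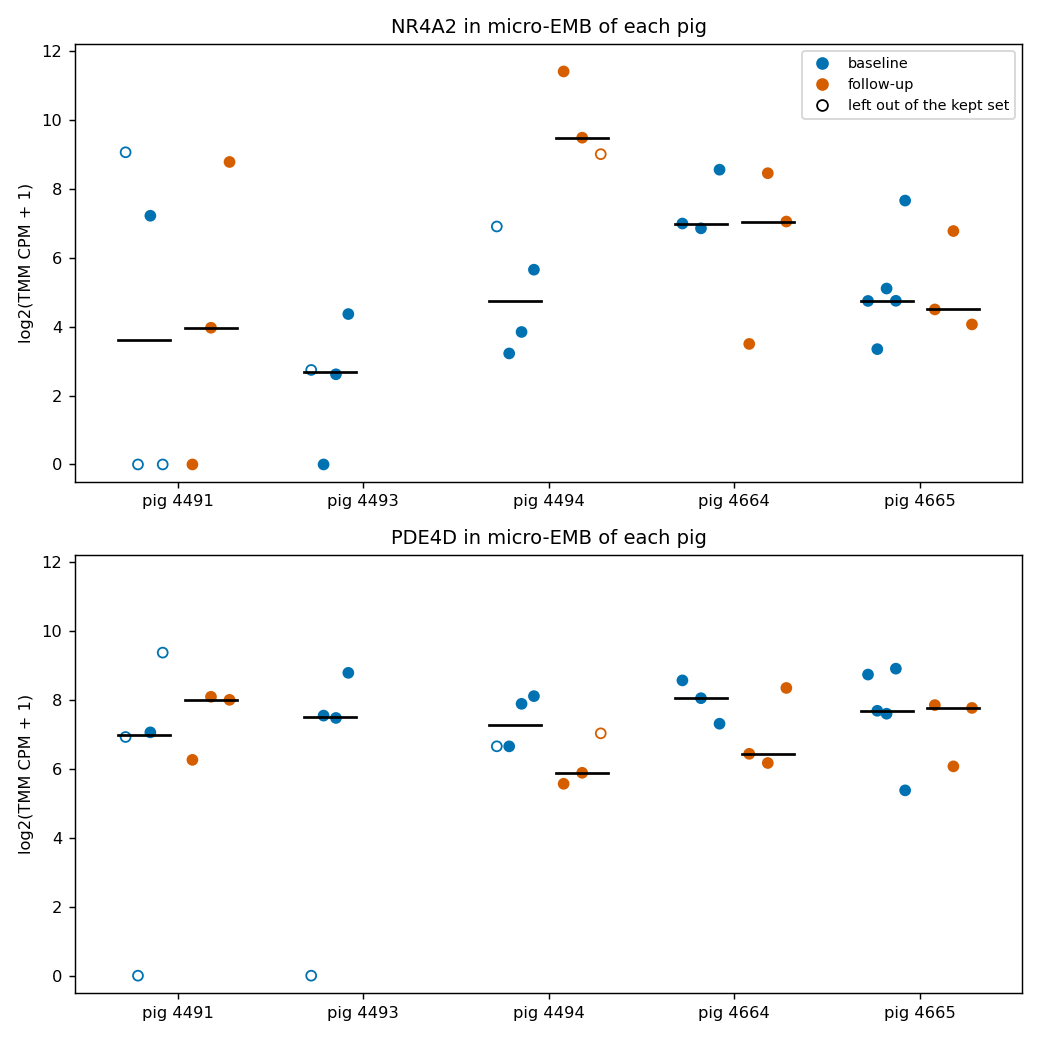
NR4A2 (top) and PDE4D (bottom) in the 32 micro-EMB samples as log2(TMM CPM + 1), by pig, with baseline in blue, follow-up in orange and bars at the medians. Open points lie outside the kept set, and pig 4493 had no follow-up sample. NR4A2 at follow-up lies above all baseline samples in pig 4494 and overlaps them in the other 3 pigs.

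The 4 samples taken here to stand apart were 8, 22, 36 and 52, from 4 pigs and all at follow-up. They were the micro-EMB samples highest on the first principal component of the kept set. The 14 reference samples were those of the remaining micro-EMB samples lowest on the second component. Both sets were picked anew and may differ from the study's. The 4 samples differed much more from each other in NR4A2 than in PDE4D. Their NR4A2 levels were 0, 2707, 349 and 108 CPM. The 14 reference samples ran from 5.13 to 375 CPM, so 2 of the 4 fell inside that range, 1 above it and 1 below it. Their PDE4D levels were 75.7, 46.4, 71.0 and 66.3 CPM, all below the lowest reference sample (158 CPM, highest 479.5). The other 8 follow-up micro-EMB samples held 58.2 to 325 CPM of PDE4D. RYR2 was 251 to 684 CPM in the 4 samples against 3675 to 13675 in the reference, and the collagen COL3A1 was 9593 to 60634 CPM against 1863 to 14443. RYR2 and PDE4D were thus both low in these 4 samples; the part of tissue make-up in the PDE4D value was not tested.

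The relation between both genes was examined within tissues, since tissues form separate clusters. In conventional EMB it was negative over 10 samples of 2 pigs. Pearson's r was -0.80 (exact permutation within pigs p = 0.0124, adjusted p = 0.0742) and Spearman's rho was -0.66 (exact permutation p = 0.0295, adjusted p = 0.0885), over 6 coefficients. It rested on the 3 libraries that clustered with blood. In the other 7 samples r was -0.16 and rho was -0.11 (exact permutation p = 0.639 and 0.778). Without the 2 samples farthest from the PDE4D median r was -0.79 and rho was -0.40 (exact permutation p = 0.0712 and 0.321). Scaled to library totals instead of TMM, rho was -0.83 and passed the threshold (exact permutation adjusted p = 0.00667).

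In blood both genes were highest in sample 28 and lowest in sample 51. Pearson's r was 0.82 (n = 6, exact permutation p = 0.0833, adjusted p = 0.167) and rho was 0.83 (exact permutation p = 0.167, adjusted p = 0.25). In muscle r was 0.37 and rho was 0.26 (n = 6, exact permutation p = 0.417 and 0.639). With 36 arrangements within pigs, the smallest p in these tissues is 0.0278. In both, leaving out the 2 samples farthest from the PDE4D median left 4 samples, with r of 0.70 in blood and 0.54 in muscle. In micro-EMB, as a description, rho was -0.07 over 20 baseline and -0.36 over 12 follow-up samples.

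**Figure D4:**
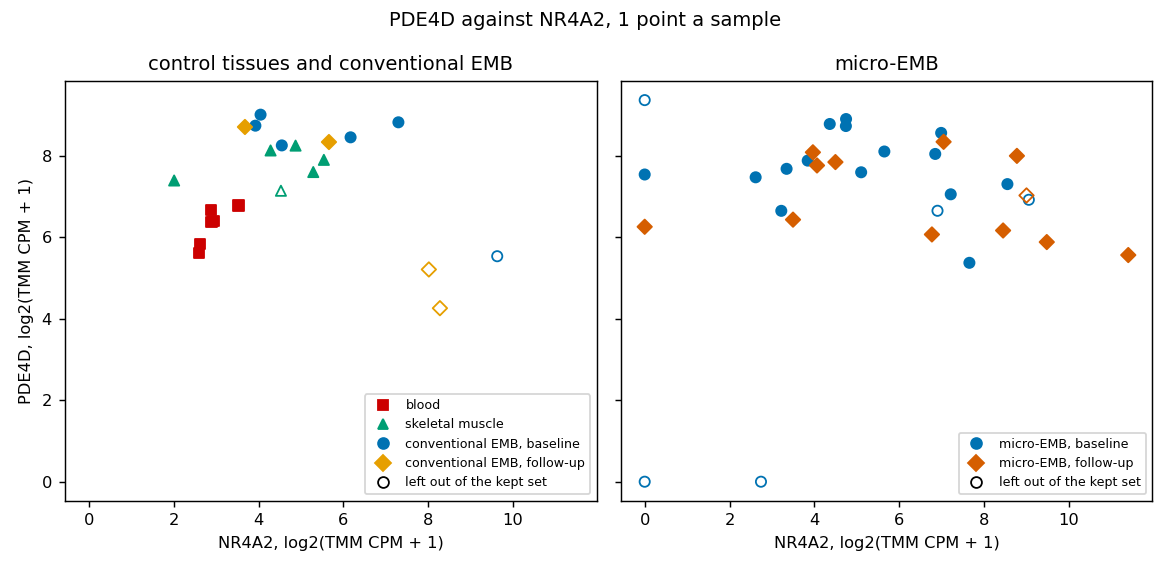
PDE4D against NR4A2 as log2(TMM CPM + 1), 1 point a sample, in blood, muscle and conventional EMB (left) and in micro-EMB (right). Open points lie outside the kept set; the 3 open conventional EMB points form a group of their own at high NR4A2 and low PDE4D, and the filled ones show no slope.

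Both genes kept different company across the heart samples. Spearman's rho over the 42 conventional EMB and micro-EMB samples was computed for 9893 genes. The samples share pigs and differ in depth and tissue make-up, so the values describe these libraries. Most of the 9893 genes were positive with each gene over the 42 samples. COL1A2, at 0.02 with NR4A2, ranked only 6516 from the top, and ADCY9, at 0.01 with PDE4D, ranked 5998. A count of positive genes is to be read beside that. The 5 named genes most like NR4A2 were FOS (0.73), MAFF (0.73), RP2 (0.72), PPP1R15A (0.71) and JUNB (0.70). FOS, MAFF and JUNB encode AP-1 family transcription factors, and PPP1R15A (GADD34) is a stress-induced phosphatase subunit. All 10 measured CREB targets and immediate early genes had a positive rho with NR4A2, with a median of 0.61 (0.62 over the 33 kept heart samples). NR4A3 was at 0.64. The 5 heart muscle markers were all negative, at -0.26 to -0.18. All 4 erythroid and blood genes were positive with NR4A2, with a median of 0.42, and of 0.22 over the kept samples.

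The 5 genes most like PDE4D were TUFM, ACADSB (both 0.86), PDHA1 (0.86), PPTC7 (0.85) and HADHA (0.84), all encoding mitochondrial proteins, among them a subunit of pyruvate dehydrogenase and enzymes of fatty acid oxidation. Over the 33 kept samples they were PDHA1 (0.95), GOT1 (0.94), ATP5F1A (0.93), OXCT1 (0.92) and ACAA2 (0.92). All 5 heart muscle markers had a positive rho with PDE4D, with a median of 0.63, RYR2 at 0.70 and ACTC1 (cardiac actin) at 0.81. The 8 fibroblast and matrix genes had a median of -0.01 over 42 samples and of -0.50 over the kept samples, where all 8 were negative. Most of the 9893 genes were positive with PDE4D over the kept samples too. ATP2A1, at 0.005 there, ranked 5872 from the top. Of the CREB targets and immediate early genes, 1 of 10 was positive with PDE4D over the 42 samples.

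Within the cAMP machinery, 14 of 21 genes had a positive rho with PDE4D and 11 of 21 with NR4A2, with medians of 0.04 and 0.02. Most of all genes were positive with each as well, so these counts do not set the list apart. The PDE4D values ran from -0.32 (CRTC2, a CREB coactivator) to 0.77 and the NR4A2 values from -0.24 to 0.42. Highest with PDE4D were PRKAR2A (0.77), a regulatory subunit of protein kinase A, and AKAP6 (0.68), an anchor that holds the kinase near RYR2. RAPGEF4 (Epac2, a cAMP sensor) was at 0.60, PRKAR1A at 0.57 and PRKACA, the catalytic subunit, at 0.53. Over the kept samples CREBBP, a coactivator of CREB, was at -0.66 with PDE4D and CRTC2 at -0.57. Highest with NR4A2 was AKAP5. PDE4B was closer to NR4A2 (0.54) than to PDE4D (0.18) over 42 samples, and closer to PDE4D (0.48) than to NR4A2 (0.35) over the kept samples; these differences were not tested.

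**Figure D5:**
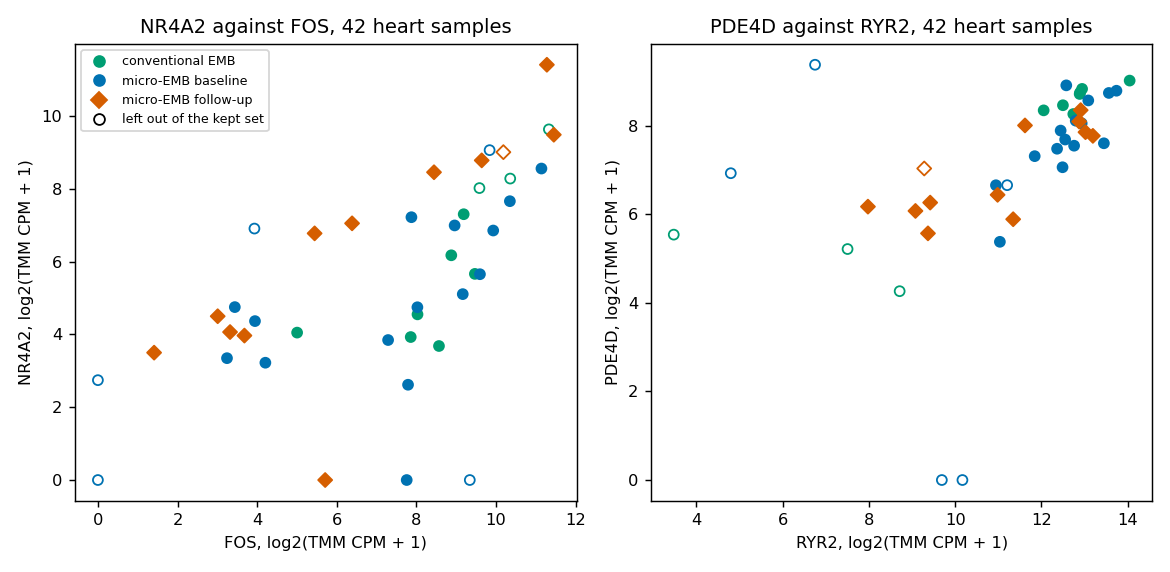
NR4A2 against FOS (left) and PDE4D against RYR2 (right) in the 42 heart samples, all as log2(TMM CPM + 1), with open points outside the kept set. NR4A2 follows FOS with samples at 0 reads along the lower edge, and PDE4D follows RYR2, the lowest filled points being mostly follow-up micro-EMB.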

How the data were processed

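Per the labels and the study's methods, RNA was prepared with a total RNA kit that marks strand, reads were trimmed with Trim Galore, mapped with STAR to Sscrofa10.2 and assigned to genes with featureCounts; tool versions and the strand setting are not given in the sources used here. The deposited values are raw read counts per gene, 1 column per sample (54 columns, 25114 genes). Symbols were matched for 11791 genes; sequences and coordinates were not used here.

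From the counts, edgeR 4.0.16 (R 4.3.3) gave TMM CPM and quasi-likelihood tests with the pig as covariate, filterByExpr and Benjamini-Hochberg adjustment over all tested genes (threshold 0.05). The 3 tissue comparisons shared 1 fit of 18 samples. Logs used a pseudocount of 1 CPM. Exact permutation tests used scipy 1.17.1. The test was checked on simulated counts with known changes. Alternatives were DESeq2 1.42.0, RLE scaling, no filter, no pig term, the kept set, libraries of at least 1000000 reads, counts summed per pig, other pseudocounts and library totals. Leaving out each library in the baseline comparisons, sample 38 in the gene lists and each pig in the micro-EMB medians, and distances from the pig's own median, were added after seeing the data.

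The genes and gene lists were chosen with earlier results of these data known. The 5 genes named as most like each member are those of highest Spearman's rho with a symbol. Genes of the fixed lists are named by role and value.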

Additional observations from a re-analysis of the deposited data

Results flagged for a closer look

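Of the 8 sets of values tested (2 genes in blood, muscle and conventional EMB at each time), 3 held 1 sample far from the rest by Dixon's criterion; chance gives about 1 in 20. PDE4D in baseline conventional EMB was flagged for sample 38, at 45.5 CPM against 306 to 517 CPM in the other 5. That library nearly lacked RYR2 and TNNT2, and had the highest NR4A2 of its group. NR4A2 in muscle was flagged for sample 48, at 3.03 CPM (5 reads) against 18.5 to 45.6 CPM. NR4A2 in blood was flagged for sample 28, at 10.6 CPM (30 reads) against 5.05 to 6.68 CPM.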

How the results depend on the processing

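Over the 5 tested comparisons, values for NR4A2 and PDE4D that were reversed, lost or gained a call are given here with the count of called genes; for all others the side of the threshold and the direction held. With counts summed per pig, 1916 genes were called between conventional EMB and blood, 2677 between blood and muscle and 0 between conventional EMB and muscle; NR4A2 against blood was 4.69 and not called, PDE4D in blood against muscle was -1.40 and not called, and NR4A2 over the week was -0.67. This fit has fewer samples. With all 54 samples in 1 fit, 272 genes were called between conventional EMB and muscle, and PDE4D in blood against muscle was -1.43 and not called. Under DESeq2, 1639 genes were called between conventional EMB and muscle, 13 between devices and 205 over the week; NR4A2 was 2.68 (called) against muscle and 0.077 between devices. RLE scaling gave 0.074 there. Without the filter, 24 genes were called between devices and 106 over the week. Without the pig term, 3 genes were called between devices, and NR4A2 was 3.08 (called) against muscle and -0.50 over the week. In all baseline heart samples 1 gene was called between devices. In the kept set 1820 genes were called between conventional EMB and muscle and 44 between devices. There PDE4D was 0.77 against muscle and NR4A2 was -1.87 in blood against muscle, both called, and NR4A2 was 0.23 between devices and -0.15 over the week. Without libraries under 1000000 reads, 1 follow-up sample remained, assumed to vary like the rest, with NR4A2 at -5.09 and PDE4D at 0.59 over the week. The relation in conventional EMB had rho -0.83 (called) under library totals. The NR4A2 distance from the pig's own median was 2.04 larger in micro-EMB in pigs 4491 and 4494 (called, with the limit of this measure given above). The cause of these changes was not tested.

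Leaving out 1 library gave 688 to 1547 called genes between conventional EMB and muscle, the highest without muscle sample 57. PDE4D there was 0.51 to 0.86, and NR4A2 in blood against muscle was -2.28 to -1.46. NR4A2 between devices was -1.50 to 1.09, changing sign without micro-EMB sample 26, 30 or 54 or conventional EMB sample 38, and over the week it was -0.10 to 2.14. Precision was limited by depth for NR4A2 in blood and in libraries with few reads, and by the 2 pigs behind all tested comparisons. A gene-level count gives no view of PDE4D isoforms.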
